A study of Homo sapiens with 8 samples.

Results

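The genes described here encode the proteins of the cytosolic ribosome. They are the rows of the deposited table whose symbol is RPL or RPS followed by digits and at most 1 letter, together with RPLP0, RPLP1, RPLP2 and RPSA, which gave 80 of the 19583 rows, 49 genes of the large subunit and 31 of the small subunit. The samples were MDA-MB-231 cells, an established line of triple-negative breast cancer, grown in DMEM with serum, with polyadenylated RNA sequenced from 8 libraries. All libraries carried a hairpin label: 2 libraries were labelled shSC (a scrambled control hairpin) and kept at 20% O2, 2 were labelled shSC and kept at 1% O2, 2 were labelled shCHD4 and kept at 20% O2, and 2 were labelled shCHD4 and kept at 1% O2, each exposure lasting 24 h. CHD4 is the ATPase of a chromatin remodelling complex, and per the series' title the study asked how it bears on the activity of hypoxia-inducible factors. Whether both libraries of a group are from separate cultures, whether a hairpin line was 1 clone, and how many hairpin sequences were used is not in the labels, so p-values measure only how far these libraries differ, possibly for technical reasons.

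A ribosome is built from a large and a small subunit, each an RNA core with one copy of most proteins, so cells make the proteins in near-equal numbers and degrade what is not assembled. The large subunit forms peptide bonds and carries the tunnel through which the new chain leaves, while the small subunit holds the mRNA and reads its codons. Most of the mRNAs begin with a C followed by a run of pyrimidines, the terminal oligopyrimidine (TOP) tract, through which mTORC1 and the LARP1 protein adjust their translation, and low oxygen is known to restrain mTORC1. The libraries measured mRNA levels, and translation of these mRNAs was not measured.

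The 30 bases around the annotated start of transcription are printed for members on which the comparisons below turn: some of those with the largest falls and rises between the hairpin labels, and those that passed the test between O2 levels and are in the promoter table. Each window holds 10 bases before the start and 20 from it, 5′ to 3′ on the gene's strand, from RefSeq's promoter table for GRCh38.p14. Capitals mark the pyrimidines (C or T) that run on without a break from the start where the first base is C.
RPL10, chrX:154398055-154398084, plus strand: ccactctcagaaatatacgtctgtcacagt
RPL12, chr9:127451387-127451416, minus strand: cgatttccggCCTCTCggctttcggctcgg
RPL39, chrX:119791611-119791640, minus strand: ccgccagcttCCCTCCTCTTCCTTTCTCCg
RPL35, chr9:124861938-124861967, minus strand: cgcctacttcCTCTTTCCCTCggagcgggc
RPL36A, chrX:101391001-101391030, plus strand: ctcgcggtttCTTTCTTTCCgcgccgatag
RPL13, chr16:89560647-89560676, plus strand: tgctatcatcCCagagtgcattgcggggcc
RPL21, chr13:27251548-27251577, plus strand: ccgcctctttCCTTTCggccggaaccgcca
RPS18, chr6:33272065-33272094, plus strand: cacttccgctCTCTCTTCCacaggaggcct
RPL22, chr1:6199576-6199605, minus strand: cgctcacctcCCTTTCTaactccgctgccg
RPS25, chr11:119018324-119018353, minus strand: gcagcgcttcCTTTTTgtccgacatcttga
RPL3, chr22:39319604-39319633, minus strand: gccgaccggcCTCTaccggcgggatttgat
RPS26, chr12:56041908-56041937, plus strand: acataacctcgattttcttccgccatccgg
RPL24, chr3:101686699-101686728, minus strand: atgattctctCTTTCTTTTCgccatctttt
RPS13, chr11:17077648-17077677, minus strand: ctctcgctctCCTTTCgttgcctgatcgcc
A C followed by at least 4 pyrimidines, 5 bases or more in all and searched on the gene's strand only at the annotated first base, was present in 42 of the 64 members that the promoter table holds (65.6%). The same was found in 3.9% of the 27241 other promoters in that table and in 4.92% of those of 9246 other genes tested here. A run of 8 or more pyrimidines within 10 bases of the start was found in 68.8% of the members and in 9.41% of the other promoters. The tract stood in members that were lower in the libraries labelled shCHD4, such as RPL12, RPL39 and RPL35, and in members that were higher, such as RPL21, RPS18 and RPL22. The windows of RPL10 and RPL13, the members with the largest fall and the largest rise at 20% O2, did not hold it at the annotated start, which says nothing about other start sites of these genes.

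The libraries held 24947627 to 31903585 reads, of which the 80 members took 3.81% to 4.33%. The deposited values are reads multiplied by a constant of each library with no division by transcript length, and are called normalised read counts, so levels are compared between libraries and not between genes. CHD4 itself ranged from 278 to 305 over the 8 libraries and did not pass the test between labels (log2 difference 0.00 at 20% O2 and 0.07 at 1% O2), so the labels are used as names and a direction is given for the libraries labelled shCHD4. NDRG1 and CA9, which low oxygen is known to induce, were higher at 1% O2 under both labels. Markers of the line were in place, with VIM at 3471 or more and AXL at 1293 or more in every library, ESR1, PGR and CDH1 at or near 0, and the leukocyte marker PTPRC at 0.64 or less. COL1A1 lay at 19.1 to 32.6. Of 9 markers tested, 8 differed between the labels at 20% O2 and 7 at 1% O2: VIM by 0.66 and 0.29 on the log2 scale at 20% and 1% O2, CD44 by -0.79 and -0.80, EGFR by -0.57 and -0.82, AXL by 0.15 and 0.00, ERBB2 by 0.40 and 0.54, EPCAM by -0.58 and -0.48, and the stromal markers COL1A1 by 0.53 and 0.52 and PDGFRB by 0.54 and 0.81. AXL did not pass at 1% O2 and PECAM1 at neither level. The markers' part in the members' differences was not tested. Within a group the members shifted together between replicates, since replicate 1 was above replicate 2 in 78 of 78 members of the shSC libraries at 20% O2 (median log2 difference 0.09) and in 77 of 78 of the shCHD4-labelled libraries at 20% O2 (0.13). At 1% O2 replicate 2 was the higher one, in 57 of 78 members for shSC and in 72 of 78 for shCHD4, while the medians over all genes in these 4 contrasts of replicates were -0.01 to 0.01. What moved the members between replicates was not tested.

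At 1% O2 the ribosomal protein genes as a family stayed near their level at 20% O2. Differences were tested with limma on log2(value + 0.5) over the 12645 genes whose mean over the 8 libraries was 1 or more, which kept 78 members, and p-values were adjusted by the Benjamini-Hochberg method over all of them. RPL3L and RPL10L, which had 2 and 4 reads in all 8 libraries, were not tested. Under shSC 2 members were higher and 1 was lower (adjusted p under 0.05), or 3.85% of the members, where 35.2% of all genes passed (17.4% higher and 17.9% lower). In the libraries labelled shCHD4 no member was higher and 3 were lower, again 3.85%, where 23% of all genes passed (12.3% higher and 10.7% lower). At an unadjusted p under 0.05 the counts were 11 and 7 of 78. The median log2 difference of the members was 0.01 under shSC and -0.03 under shCHD4, beside -0.01 and 0.00 over all genes. Their differences had a standard deviation of 0.07 under shSC and 0.06 under shCHD4, beside 0.29 and 0.23 over all genes. In bulk RNA, fewer cells expressing a gene and less RNA per cell cannot be told apart. The counts moved with single libraries and with the scaling: under shSC they were 7 higher and 0 lower without replicate 1 at 20% O2 and 0 higher and 5 lower without replicate 2 at 20% O2, and quantile normalization gave 1 higher and 15 lower.

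RPL39L, a paralog of the exit tunnel protein RPL39 that is best known from testis, had normalised read counts of 18.9 and 16.6 in the shSC libraries at 20% O2 and 21.5 and 22.2 in those at 1% O2. Its libraries labelled shCHD4 lay at 10.5 and 10.7 at 20% O2 and 12.3 and 12.4 at 1% O2. The values at 1% O2 were above those at 20% O2 under both labels, without overlap. The rise was 1.23-fold under shSC (log2 0.30, 95% interval 0.12 to 0.47, limma adjusted p = 0.00895) and 1.16-fold under shCHD4 (log2 0.21, 0.04 to 0.38, adjusted p = 0.0692) and did not pass in the second. The call under shSC was lost without replicate 2 at 20% O2 (log2 0.21, adjusted p = 0.104) and without replicate 2 at 1% O2 (0.27, adjusted p = 0.0546). RPL3, whose loops reach toward the peptidyl transferase centre, rose from 1198 and 1131 at 20% O2 to 1307 and 1295 at 1% O2 under shSC (log2 0.16, 0.07 to 0.25, limma adjusted p = 0.00883). Under shCHD4 its values were 998 and 941 at 20% O2 and 993 and 1019 at 1% O2, groups that overlapped. The call of RPL3 under shSC was lost in 5 of 24 alternatives. Among them were no filter on low values (limma adjusted p = 0.0549) and no variance trend (0.0656). Without replicate 2 of shSC at 20% O2 the difference of RPL3 was 0.12 with an adjusted p of 0.0819, and under quantile normalization it was 0.01.

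RPS26, a small-subunit protein that touches the mRNA on its way out of the decoding channel, was the 1 member past the threshold under both labels. Its values were 145 and 134 in the shSC libraries at 20% O2 and 129 and 125 at 1% O2. In the libraries labelled shCHD4 they were 144 and 137 at 20% O2 and 116 and 122 at 1% O2. All 4 libraries at 1% O2 were below all 4 at 20% O2. The fall was 1.10-fold under shSC (log2 -0.13, -0.24 to -0.03, limma adjusted p = 0.0481) and 1.18-fold under shCHD4 (log2 -0.24, -0.34 to -0.13, adjusted p = 0.00281). The first of these calls was lost in 16 of 24 alternative analyses, including edgeR (adjusted p = 0.0563) and DESeq2 (0.112). The call under shCHD4 was lost in 3 of 24, without replicate 1 at 20% O2 (log2 -0.20, adjusted p = 0.0505), without replicate 1 at 1% O2 (-0.20, 0.0643) and with each library centred on its median ribosomal protein gene (-0.22, 0.0542).

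RPL24, which lies at a bridge between the subunits, had 426 and 383 at 20% O2 and 351 and 362 at 1% O2 under shCHD4, a fall (log2 -0.18, 95% interval -0.29 to -0.07, limma adjusted p = 0.0185). Under shSC it had 362 and 331 at 20% O2 and 319 and 319 at 1% O2, and the difference of -0.12 did not pass (adjusted p = 0.0884). RPS13, a small-subunit protein at another bridge, had 309.8 and 288 at 20% O2 and 265 and 279 at 1% O2 under shCHD4 (log2 -0.14, adjusted p = 0.0382). The groups at 20% and 1% O2 did not overlap for either gene under shCHD4. The call of RPL24 was lost in 6 of 24 alternatives. That of RPS13 was lost in 7 of 24, among them DESeq2 (adjusted p = 0.0559). Without replicate 1 at 20% O2 the differences were -0.10 for RPL24 (adjusted p = 0.275) and -0.09 for RPS13 (0.351). Without replicate 1 at 1% O2 they were -0.16 (0.151) and -0.10 (0.316), and without replicate 2 at 1% O2 they were -0.20 (0.0606) and -0.18 (0.0639). RPL37A moved least with O2 under shSC (log2 -0.00), and RPL41, the smallest ribosomal protein, moved least under shCHD4 (0.00).

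**Figure D1:**
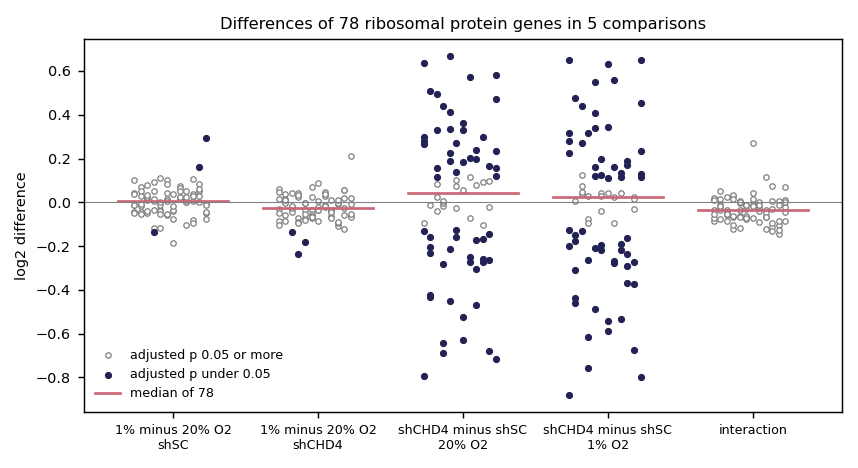
Log2 differences of the 78 tested ribosomal protein genes (vertical axis) in the 5 comparisons (horizontal axis), with filled points past an adjusted p of 0.05 in limma and a line at the median. The differences with O2 lie between -0.24 and 0.30, and those between hairpin labels between -0.88 and 0.67.

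Other genes of the translation apparatus were read beside them. Of 76 mitochondrial ribosomal protein genes, whose products work inside mitochondria, 1 was higher and 39 were lower at 1% O2 under shSC (median log2 difference -0.18), and 0 were higher and 24 lower under shCHD4 (-0.14). Of 18 genes for translation factors and other known TOP mRNAs, 5 rose and 1 fell at 1% O2 under shSC, and 2 rose under shCHD4, where 35.2% and 23% of all genes passed. EIF4B, a helicase cofactor of initiation, rose under both labels (log2 0.23 and 0.14), as did TPT1 (0.24 and 0.21). EEF2, the translocation factor, rose under shSC (0.18) and had -0.01 under shCHD4 (adjusted p = 0.842). Of the 42 members with the TOP tract at the annotated start, 0 passed under shSC and 2 under shCHD4, and of the 21 tested members whose window lacked it, 2 and 1 passed.

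Between the hairpin labels most ribosomal protein genes differed, and they did so in both directions. At 20% O2 31 members were higher and 28 lower in the libraries labelled shCHD4, so that 75.6% of the members passed, where 75.6% of all genes did (37% higher and 38.6% lower). At 1% O2 29 were higher and 31 lower, or 76.9%, where 77.4% of all genes passed (38.2% higher and 39.2% lower). A share of called members so near the background is not a result about the members. The median difference was 0.04 at 20% O2 and 0.03 at 1% O2, beside -0.01 and -0.01 over all genes, and the first of these turned to -0.03 without replicate 1 of shCHD4 at 20% O2. The median size of the difference, in either direction, was 0.23 at 20% O2 and 0.21 at 1% O2, beside 0.37 and 0.40 over all genes. A difference of 1.5-fold or more was seen in 8 members at 20% O2 and 9 at 1% O2, and 2-fold or more in 0 members at both, where 13% and 14.2% of all genes reached 2-fold. The split between higher and lower depended on the scaling. Quantile normalization gave 42 higher and 18 lower at 20% O2 and 44 and 18 at 1% O2. With each library centred on its median ribosomal protein gene the counts were 21 higher and 30 lower at 20% O2 and 19 and 31 at 1% O2. The call and its direction held in the main analysis and all 24 alternatives for 14 of the 31 higher and 6 of the 28 lower members at 20% O2, and for 10 of 29 and 10 of 31 at 1% O2.

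The differences between labels were alike at both O2 levels, which share no library. Of the members, 56 passed at both levels, 28 of them higher and 28 lower at each, with none in opposite directions. Over the 78 members the differences at 20% and 1% O2 had a Pearson correlation of 0.98 and a Spearman correlation of 0.98, beside 0.97 and 0.95 over all genes, where all members of a pair of values share the libraries' depth and scaling. The signs were the same in 75 of 78.

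**Figure D2:**
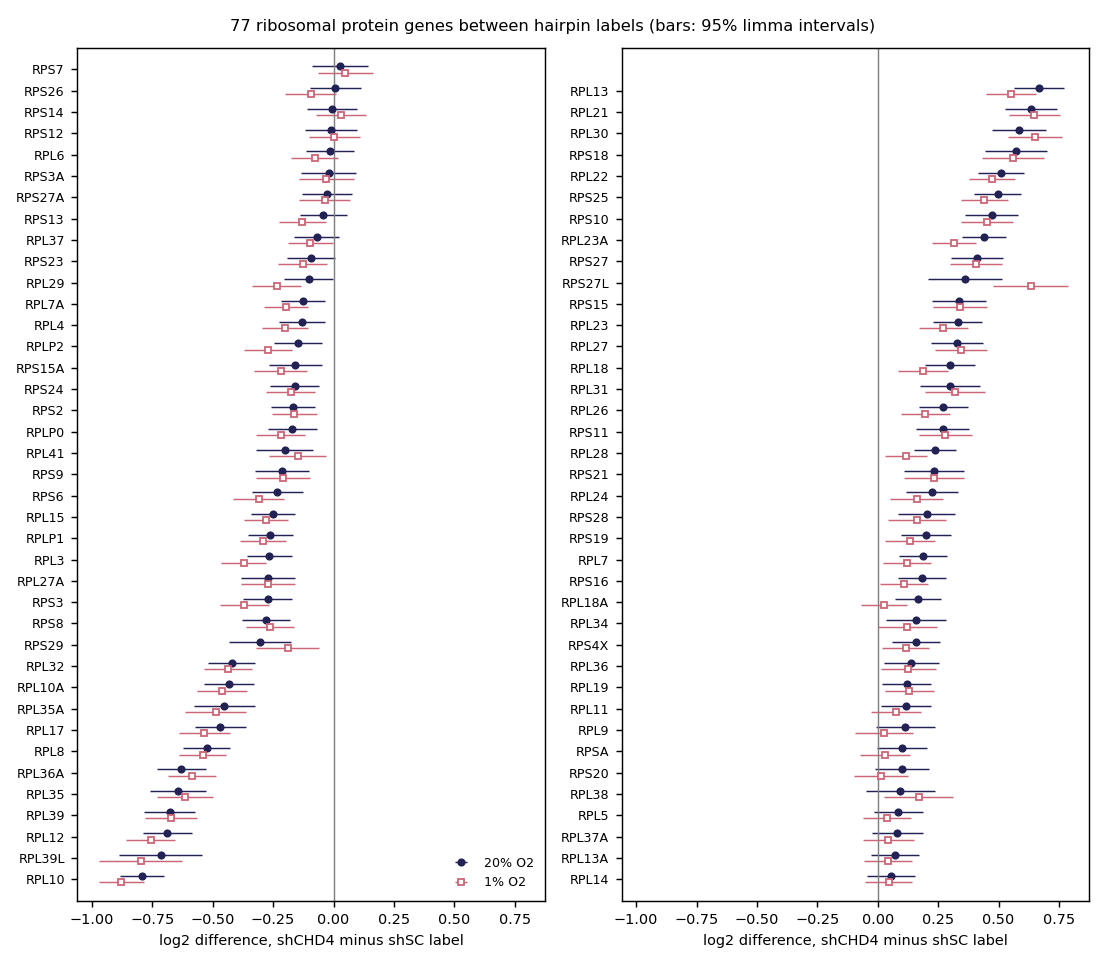
Log2 difference between the libraries labelled shCHD4 and those labelled shSC (horizontal axis) for 77 of the 78 tested members (vertical axis), at 20% O2 (filled) and 1% O2 (open), with 95% limma intervals. Members run from RPL10, at -0.79 and -0.88, to RPL13, at 0.67 and 0.55, and the values at the 2 O2 levels lie close to each other for most of them.

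Among the large-subunit genes that fell, RPL10 had the largest difference. RPL10 sits near the peptidyl transferase centre and is among the last proteins to join the subunit. Its normalised read counts were 1092 and 1028 in the shSC libraries at 20% O2 and 1152 and 1125 at 1% O2. Those labelled shCHD4 had 631 and 593 at 20% O2 and 617 and 621 at 1% O2. The 4 libraries labelled shCHD4 were all below the 4 labelled shSC. The fall was 1.73-fold at 20% O2 (log2 -0.79, 95% interval -0.89 to -0.70, limma adjusted p = 1.04e-11) and 1.84-fold at 1% O2 (log2 -0.88, -0.97 to -0.79, adjusted p = 2.11e-12). RPL8, which also lines that centre, went from 1355 and 1248 to 933 and 875 at 20% O2 (log2 -0.53) and from 1273 and 1296 to 879 and 887 at 1% O2 (-0.54). With RPL3 (-0.27 and -0.37), all 3 members listed for the centre were lower at both O2 levels, where 38.6% and 39.2% of all genes were lower. RPL8 turned to 0.10 and 0.13, the second past the threshold, and RPL3 at 20% O2 to 0.01, when each gene was centred on its chromosomal neighbours, an alternative described below.

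The stalk of the large subunit recruits and activates elongation factors. All 4 of its genes were lower in the libraries labelled shCHD4 at both O2 levels, where 38.6% and 39.2% of all genes were lower. RPL12, at the base of the stalk, had 719 and 670.3 in the shSC libraries at 20% O2 and 733 and 746 in those at 1% O2. The libraries labelled shCHD4 held 451 and 411 at 20% O2 and 430.4 and 444 at 1% O2. The label groups did not overlap, and the fall was 1.61-fold at 20% O2 (log2 -0.69, -0.79 to -0.59, limma adjusted p = 2.72e-10) and 1.69-fold at 1% O2 (log2 -0.76, -0.86 to -0.66, adjusted p = 6.39e-11). RPLP0, RPLP1 and RPLP2, which form the arms of the stalk, fell less, by 0.17, 0.26 and 0.15 on the log2 scale at 20% O2 and by 0.22, 0.29 and 0.27 at 1% O2. Of these signs, 2 moved with the scaling: RPLP0 at 1% O2 was 0.06 under quantile normalization and RPLP2 at 20% O2 was 0.04 when centred on neighbours, with neither past the threshold. At 20% O2 the calls of RPLP0 and RPLP2 were lost under quantile normalization (adjusted p = 0.412 and 0.567), without replicate 1 of shSC (log2 -0.12 and -0.08, adjusted p = 0.0593 and 0.132) and without replicate 2 of shCHD4 (-0.12 and -0.10, 0.0674 and 0.117). Without a variance trend that of RPLP2 was lost too (0.0569). Centring on neighbours ended the call of RPLP1 at 20% O2 (-0.10, 0.0888) and that of RPLP2 at 1% O2 (-0.07, 0.16).

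Genes of the peptide exit tunnel and its rim were split, with 4 of 8 higher and 4 of 8 lower at both O2 levels. Over all genes 37% were higher and 38.6% lower at 20% O2, and 38.2% and 39.2% at 1% O2. RPL39, a small protein in the wall of the tunnel, had 423 and 397 in the shSC libraries at 20% O2 and 413 and 436 at 1% O2. It had 269 and 243 at 20% O2 and 261 and 271 at 1% O2 in the libraries labelled shCHD4. The groups did not overlap, and the fall was 1.60-fold at 20% O2 (log2 -0.68, -0.79 to -0.57, limma adjusted p = 7.42e-10) and 1.59-fold at 1% O2 (adjusted p = 7.77e-10). RPL35, at the rim of the tunnel, had 391 and 358 at 20% O2 and 341 and 349 at 1% O2 under shSC. Under shCHD4 it had 250.1 and 229 at 20% O2 and 215 and 236 at 1% O2, a fall of 1.56-fold and 1.53-fold. RPL17 and RPL4, which line the tunnel, fell by 0.47 and 0.13 on the log2 scale at 20% O2 and by 0.53 and 0.20 at 1% O2. RPL23A, the docking site of the signal recognition particle, rose instead, from 447 and 445 to 628 and 584 at 20% O2 (log2 0.44, limma adjusted p = 2.93e-08) and from 465 and 461 to 568 and 584 at 1% O2 (0.32). RPL26, RPL31 and RPL19 were the other rim genes that rose, by 0.12 to 0.32. Centred on neighbours, RPL39, RPL35 and RPL19 changed sign at both O2 levels, and RPL4 changed sign at 1% O2 under quantile normalization, all without passing the threshold there. RPL17 centred on neighbours came to -0.11 at 20% O2, which ended its call (limma adjusted p = 0.069), and to -0.29 at 1% O2, which passed. After that centring 2 of the 8 genes were higher and 0 lower at 20% O2, and 0 higher and 1 lower at 1% O2.

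RPL5 and RPL11, which carry the 5S RNA into the ribosome and can bind MDM2 outside it, differed little. RPL11 was higher at 20% O2 (log2 0.12, limma adjusted p = 0.0373). That call was lost in 6 of 24 alternatives, among them leaving out replicate 1 of shCHD4 (log2 0.05, adjusted p = 0.456) or replicate 2 of shSC (0.10, 0.138) and centring on neighbours (-0.00, 0.997). At 1% O2 RPL11 had a difference of 0.08 (adjusted p = 0.163), which turned to -0.12 and passed when centred on neighbours (0.0308). RPL5 had 0.08 and 0.04 and passed at neither level. RPL36A, next to the exit site for tRNA, had 291 and 274 at 20% O2 and 277 and 274 at 1% O2 under shSC. It had 190.3 and 175 at 20% O2 and 181 and 185 at 1% O2 under shCHD4, a fall by 0.63 on the log2 scale at 20% O2 and by 0.59 at 1% O2 (limma adjusted p = 8.44e-10 and 2.1e-09). Centred on neighbours RPL36A came to -0.05 at 20% O2 (limma adjusted p = 0.354), which ended its call, and to -0.13 at 1% O2 (0.0317).

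RPL13 had the largest rise of the large-subunit genes at 20% O2. Its normalised read counts were 632 and 568 in the shSC libraries at 20% O2 and 633 and 661 at 1% O2. They were 982 and 923 at 20% O2 and 949 and 948 at 1% O2 in those labelled shCHD4, and the label groups did not overlap. The rise was 1.59-fold at 20% O2 (log2 0.67, 0.56 to 0.77, limma adjusted p = 6.81e-10) and 1.47-fold at 1% O2 (log2 0.55, 0.45 to 0.66, adjusted p = 9.28e-09). Centred on its neighbours RPL13 turned to -0.06 at 20% O2 (adjusted p = 0.287) and to -0.19 at 1% O2, which passed in the opposite direction (0.00195). RPL21 went from 297 and 284 to 476 and 427 at 20% O2 and from 278 and 284 to 428 and 454 at 1% O2, 1.55-fold and 1.57-fold. The row of its pseudogene RPL21P28 differed from RPL21 by at most 1 read in any library, so the gene from which the reads came cannot be told apart. RPL30 went from 272 and 261 to 424 and 376 at 20% O2 and from 253 and 262 to 389.9 and 419 at 1% O2 (log2 0.58 and 0.65). RPL22, an RNA-binding protein that ribosomes can do without, had 245 and 243 at 20% O2 and 245 and 260.5 at 1% O2 under shSC. Under shCHD4 it had 359.9 and 336 at 20% O2 and 352 and 351 at 1% O2 (log2 0.51 and 0.47, limma adjusted p = 8.17e-09 and 2.02e-08). In each of these genes every library labelled shCHD4 was above every library labelled shSC.

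**Figure D3:**
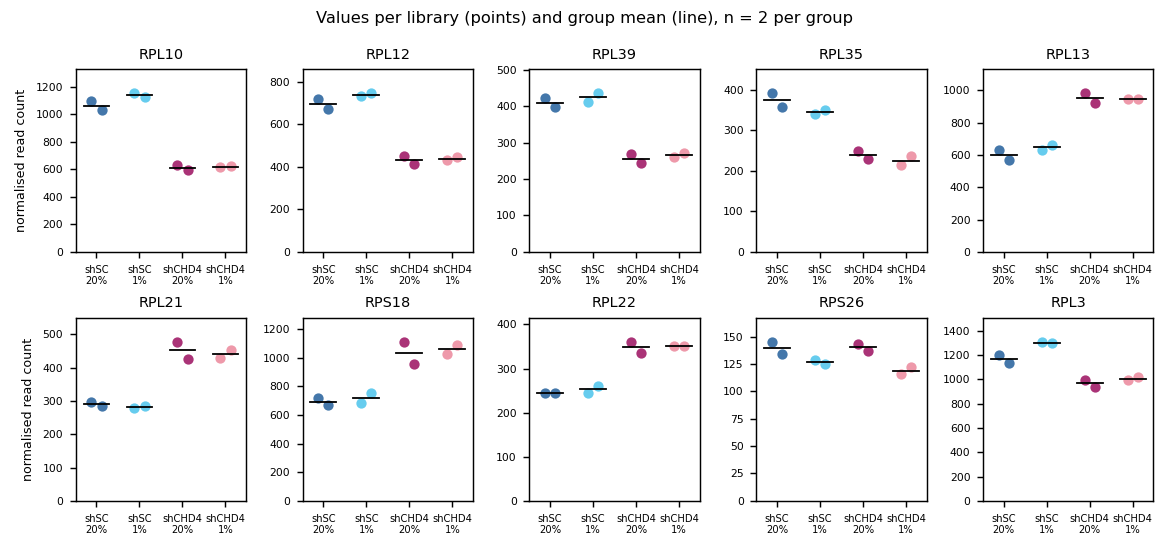
Normalised read counts (vertical axes, from 0) of 10 ribosomal protein genes in each library (points) with the group mean (line, n = 2) for the 4 groups of hairpin label and O2. RPL10, RPL12, RPL39 and RPL35 are lower and RPL13, RPL21, RPS18 and RPL22 higher in every library labelled shCHD4, while RPS26 separates by O2.

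In the small subunit 13 of 31 genes were higher and 8 lower at 20% O2, and 13 and 10 at 1% O2. Of all genes, 37% were higher and 38.6% lower at 20% O2, and 38.2% and 39.2% at 1% O2. The 4 genes whose tails reach the P and E sites for tRNA (RPS15, RPS16, RPS18 and RPS25) were all higher at both levels. RPS18 had 717 and 670.3 in the shSC libraries at 20% O2 and 686 and 751 in those at 1% O2. It had 1109 and 959 at 20% O2 and 1024 and 1092 at 1% O2 in those labelled shCHD4, all above the shSC libraries. The rise was 1.49-fold at 20% O2 (log2 0.57, 0.44 to 0.70, limma adjusted p = 9.39e-08) and 1.47-fold at 1% O2 (adjusted p = 1.24e-07). RPS25, which viral internal entry sites need for initiation, went from 262 and 262 to 385 and 356 at 20% O2 and from 263 and 273 to 354 and 375 at 1% O2 (log2 0.50 and 0.44). RPS15 had 0.34 and 0.34, and RPS16 had 0.18 and 0.11. Centred on neighbours RPS15 came to 0.04 at 20% O2, which ended its call (limma adjusted p = 0.535), and to 0.14 at 1% O2 (0.0282). RPS16 turned to -0.07 and -0.14 with that centring, the second past the threshold.

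On the entry side of the mRNA channel, RPS3 and RPS2 were lower at both levels. RPS3, also a sensor of stalled ribosomes, differed by -0.27 and -0.37, and RPS2 by -0.17 and -0.16. Centred on neighbours RPS3 came to -0.01 and -0.08 and passed at neither level (limma adjusted p = 0.829 and 0.185). RPS2 had -0.15 and -0.18 with that centring and passed at both. On the exit side, RPS28 was higher at both levels (0.20 and 0.16), and centred on neighbours it came to 0.06 and 0.03 and passed at neither (limma adjusted p = 0.344 and 0.581). RPSA, RPS14 and RPS26 did not pass, with RPS14 the member that moved least at 20% O2 (log2 -0.00) and RPS12 the one that moved least at 1% O2 (0.00). Under quantile normalization RPS28, RPSA, RPS14 and RPS26 were all higher at 20% O2. RPSA came to 0.26 and 0.15 when centred on neighbours and passed at both levels. RPS6, the substrate of the S6 kinases downstream of mTORC1, fell by 0.23 at 20% O2 (limma adjusted p = 0.000402) and by 0.31 at 1% O2 (1.84e-05). RPS10, near the entry of the channel, rose from 451 and 421 to 630.0 and 581 at 20% O2 and from 408 and 437 to 557 and 599.5 at 1% O2 (log2 0.47 and 0.45).

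Of 16 measured genes whose loss of 1 copy causes Diamond-Blackfan anaemia, 8 were higher and 5 lower at 20% O2, and 7 and 5 at 1% O2, where 75.6% and 77.4% of all genes passed. They included RPS19, the gene first tied to that disease (0.20 and 0.13), and RPL15, which fell by 0.25 and 0.28. The call of RPS19 at 1% O2 was lost in 6 of 24 alternatives, among them leaving out replicate 1 of shSC (0.09, limma adjusted p = 0.166) or replicate 2 of shCHD4 (0.11, 0.127), and its difference was 0.01 and -0.03 when centred on neighbours, passing at neither level.

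The symbol rule admits several paralogs. RPS27L, a p53-inducible paralog of RPS27, had 27.0 and 25.5 under shSC at 20% O2 and 24.3 and 21.8 at 1% O2. It had 35.1 and 32.6 at 20% O2 and 34.3 and 37.8 at 1% O2 under shCHD4, above every shSC library. The rise was 1.28-fold at 20% O2 (log2 0.36, 0.21 to 0.52, limma adjusted p = 0.000225) and 1.55-fold at 1% O2 (log2 0.63, 0.48 to 0.79, adjusted p = 2.89e-07). RPS27 itself rose by 0.41 and 0.41. RPL39L fell with RPL39 between labels, by 0.72 and 0.80 on the log2 scale. RPL7 rose by 0.19 and 0.12, while RPL7A, which shares only its name, fell by 0.13 and 0.20. The call of RPL7 at 1% O2 was lost in 7 of 24 alternatives (without replicate 2 of shCHD4, 0.10 with a limma adjusted p of 0.169) and that of RPL7A at 20% O2 in 7 (without replicate 2 of shCHD4, -0.07 and 0.221). RPL7 at 20% O2 lost its call without replicate 1 of shCHD4 (0.12, 0.0589), and RPL7A at 1% O2 turned to 0.05 under quantile normalization without passing. The difference between partners was not tested.

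Ribosome genes that the symbol rule leaves out included a larger difference between labels than any member showed. RPL22L1, the paralog of RPL22, had 125 and 125 under shSC at 20% O2 and 140.1 and 133 at 1% O2. It had 27.2 and 25.04 at 20% O2 and 24.5 and 25.7 at 1% O2 under shCHD4, differences of -2.24 and -2.42 on the log2 scale (limma adjusted p = 8.54e-17 and 2.68e-17). RPL36AL, the paralog of RPL36A, moved the opposite way from it, with 0.77 and 0.71. Among the members RPS27A, which is made as a fusion with ubiquitin, had -0.03 and -0.04 and did not pass. FAU and GNB2L1 (RACK1) passed at neither O2 level. Of the 18 translation factor and other TOP genes, 1 was higher and 9 lower at 20% O2, and 1 and 12 at 1% O2, the higher one being TPT1 (0.91 and 0.88). Of 10 host genes of small nucleolar RNAs, which guide the modification of ribosomal RNA, 1 was higher and 8 lower at both levels, with SNHG1 at -1.84 and GAS5 at -1.27 at 20% O2. Of 76 mitochondrial ribosomal protein genes, 29 were higher and 16 lower at 20% O2, and 34 and 16 at 1% O2. The shares of all genes that passed were 75.6% and 77.4%.

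Summed over the 80 members, the normalised read count differed less between groups than between some replicates. The sums were 40968 ± 1693 (SD, n = 2) at 20% O2 and 41389 ± 560.5 at 1% O2 with the shSC label, against 40592 ± 2470.3 and 39813 ± 1258 with the shCHD4 label. At 20% O2 the ranges of the labels overlapped. At 1% O2 both libraries labelled shCHD4 (38924 and 40703) were below both labelled shSC (40992 and 41785). The ratio of the large-subunit sum to the small-subunit sum was 1.78 and 1.78 in the shSC libraries at 20% O2 and 1.83 and 1.81 at 1% O2. It was 1.63 and 1.65 in the libraries labelled shCHD4 at 20% O2 and 1.65 and 1.63 at 1% O2. All 4 libraries labelled shCHD4 were below all 4 labelled shSC. Members with the most reads weigh most in these sums. Between labels the 47 tested large-subunit genes had a median log2 difference of 0.05 at 20% O2 and 0.02 at 1% O2. Of them 18 were higher and 20 lower at 20% O2, and 16 and 21 at 1% O2. Over all genes 37% and 38.2% were higher and 38.6% and 39.2% lower. The 31 small-subunit genes had medians of 0.03 and 0.03. An exact two-sided permutation test of the ratio between labels over all 8 libraries gave p = 0.0286, and with labels exchanged only within an O2 level it gave p = 0.0556. These are the smallest p that the 70 and 36 arrangements can give, and full separation of the labels always gives them. The test was not planned and says no more than that order. It treats the libraries as independent, which the labels do not show. At 1 O2 level, 2 libraries against 2 cannot give a p below 0.33, for the ratio or for the sums. The ratio is over sums that are not scaled for gene length.

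**Figure D4:**
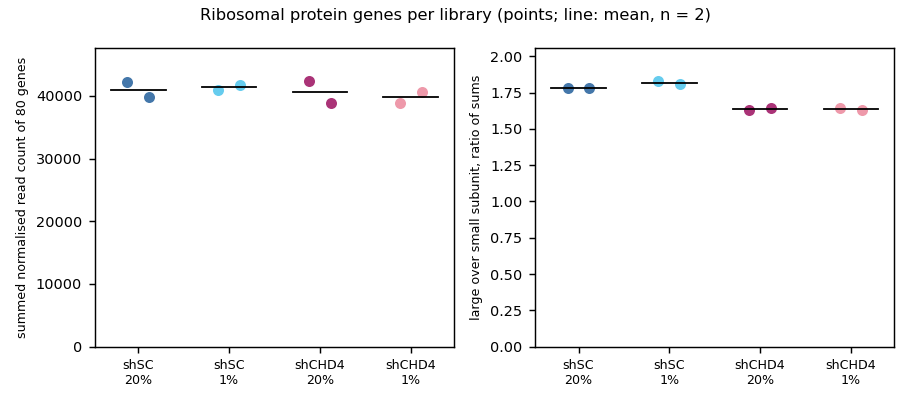
Summed normalised read count of the 80 members (left) and the ratio of the large-subunit sum to the small-subunit sum (right) in each library, with the mean of each group as a line (n = 2). The sums of the labels overlap at 20% O2 and do not at 1% O2, where their order is the reverse as a share of reads. The ratio is 1.78 to 1.83 in the shSC libraries and 1.63 to 1.65 in those labelled shCHD4.

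The members' differences between labels followed those of genes beside them on the chromosome. For each member the median difference of its 40 nearest tested genes, members left out, was taken at the same O2 level. Over the 78 members this median and the member's own difference had a Pearson correlation of 0.80 (Spearman 0.79) at 20% O2 and 0.78 (0.77) at 1% O2, beside 0.31 and 0.30 (Pearson) over 12395 genes. The genes compared were not matched to the members in level or spread. The members' median level was 470, beside 33.7 over all genes tested. The standard deviation of the differences at 20% O2 was 0.34, beside 0.81. The correlations are descriptions, since members that lie near each other share neighbours and all values share the same libraries. Of the 59 members called at 20% O2, 52 (88.1%) had the sign of their neighbours, beside 67.8% of all called genes. At 1% O2 it was 52 of 60 (86.7%), beside 65.9%. GC content, transcript length, the number of named pseudogenes and the mean level had Pearson correlations with the members' differences of -0.14 to 0.06 and Spearman correlations of -0.21 to -0.03. After a correction for GC content and length the members' median at 20% O2 was 0.10 in place of 0.04. What these features or the neighbours contributed to the differences was not tested.

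RPL39 on the X chromosome lay at -0.68 where its neighbours' median was -0.79 at 20% O2, and RPL35 on chromosome 9 at -0.64 where theirs was -0.64. RPL21 on chromosome 13 lay at 0.63 beside 0.65, and RPL13 on chromosome 16 at 0.67 beside 0.73. RPL10, at -0.79 beside -0.47, and RPL12, at -0.69 beside -0.36, were lower than their neighbours. Other members stood apart from theirs: RPL10A had -0.43 beside 0.13, RPS25 had 0.50 beside 0.06, RPS27L had 0.36 beside -0.24, and RPL15 had -0.25 beside -0.66. The counts by chromosome stand beside 37% of all genes higher and 38.6% lower at 20% O2, and 38.2% and 39.2% at 1% O2. By chromosome, the 6 members on chromosome 17 were higher in 5 cases at 20% O2 and in 6 at 1% O2. Of 12 members on chromosome 19, 10 were higher and 1 (RPS9) lower at 20% O2, and 9 and 1 at 1% O2. All 4 members on chromosome 9 (RPS6, RPL35, RPL12 and RPL7A) were lower at both levels, and on the X chromosome RPL36A, RPL39 and RPL10 were lower while RPS4X was higher (0.16 and 0.11). RPS4X turned to -0.14 and -0.21 and passed when centred on neighbours (limma adjusted p = 0.0262 and 0.00136), and without replicate 1 of shCHD4 at 20% O2 (0.10, 0.123) or replicate 2 at 1% O2 (0.08, 0.251) its call was lost. Its call at 1% O2 was lost in 6 of 24 alternatives beside that turn of sign. On the other chromosomes with at least 4 members, at 20% O2 there were 3 higher and 1 lower of 5 on chromosome 1, 1 and 0 of 4 on chromosome 2, 1 and 4 of 8 on chromosome 3, 2 and 1 of 4 on each of chromosomes 6 and 8, 1 and 3 of 5 on chromosome 11, and 0 and 2 of 4 on chromosome 12.

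The test was also run with each gene centred on the median of its 40 nearest tested genes, among which members were kept here. It gave 26 members higher and 14 lower at 20% O2, where 71.9% of all genes passed. At 1% O2 it gave 20 and 21, where 73.7% passed. Of the 59 calls at 20% O2, 25 were kept with the same sign, 4 passed with the opposite sign and 30 ended, while 11 began. At 1% O2 the figures were 28, 6, 26 and 7. The standard deviation of the members' differences was 0.34 before centring and 0.21 after it at both O2 levels. RPL10, RPL12, RPS18, RPL30, RPL22, RPS25, RPL10A and RPS27L kept their direction and passed at both O2 levels after centring. RPL21 came to 0.04 and 0.00 and did not pass, and RPL15 turned to 0.41 and 0.36 and passed. DNA was not measured, and why neighbouring genes shared a difference was not tested.

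**Figure D5:**
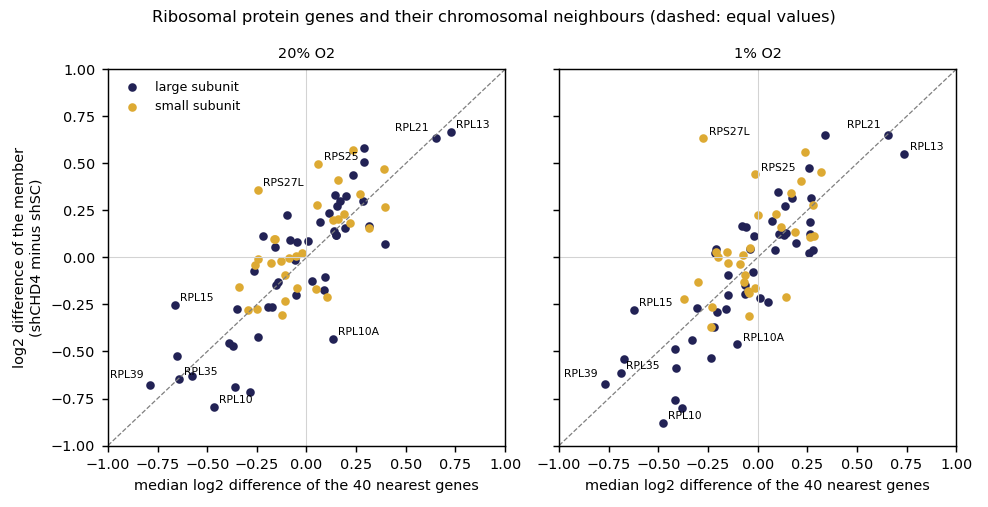
Log2 difference between hairpin labels of each of the 78 members (vertical axis) against the median of its 40 nearest tested genes (horizontal axis) at 20% O2 (left) and 1% O2 (right), with equal values on the dashed line. The members' values rise with those of their neighbours (Pearson 0.80 and 0.78), which does not measure how near they lie to the line. RPL10A, RPS25, RPS27L and RPL15 are among those away from it.

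Whether the O2 differences of the libraries with the 2 labels were unlike was tested directly as the interaction of label and O2. No member passed in limma (smallest adjusted p = 0.158), in edgeR or in DESeq2, where 4.36% of all genes passed in limma (2.21% higher and 2.14% lower), and 2 of 78 had an unadjusted p under 0.05. RPS27L had the largest interaction, 0.27 on the log2 scale (95% interval 0.05 to 0.49), and RPS21 the smallest (0.00). The O2 differences of the members under the 2 labels, which share no library, had a Pearson correlation of 0.58 (Spearman 0.51) over 78 members, beside 0.71 (0.61) over all genes.

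Reads of ribosomal protein genes are hard to place, because processed copies lie all over the genome. GENCODE 29 names 1124 pseudogenes after members, with a median of 8.5 per member, the most for RPL23A (91) and none for 5 members. The deposited table holds 26 such rows, of which 10 were tested. RPL13AP5 was among those with many reads, at 814 to 948. The sources used here do not say how reads with several matches were counted or whether strand was used, so the split between a member and its copies is uncertain. The readthrough rows RPL17-C18orf32, RPS10-NUDT3 and RPL36A-HNRNPH2 overlap a member and differed between labels like it, by -0.46, 0.46 and -0.63 at 20% O2.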

How the data were processed

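Polyadenylated RNA was sequenced from 8 libraries, in 4 groups of 2 given by hairpin label and O2 level. Per the submitters' processing notes the tools were bcl2fastq 2.17, FastQC 0.11.2, TopHat, Picard 1.127, featureCounts and edgeR, with build hg19. For the annotation, strand setting and reads with several matches the sources used here give nothing. The table carries the name FPKM, but the values the authors deposited are a signal, reads times 1 step per library: 100% of values came out as whole reads within a tolerance of 0.01. They were not divided by gene length. The design had allowed for this unit, and limma on log2 values stayed the main test.

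Genes with a mean of at least 1 were tested with limma 3.58.1 (R 4.3.3) on log2(value + 0.5), with 4 group means, a variance trend and all 8 libraries (4 residual plus 13.9 prior degrees of freedom). Tests were two-sided, p-values were adjusted by Benjamini-Hochberg over all genes tested and the threshold was 0.05. Fold changes are on that scale. edgeR 4.0.16 and DESeq2 1.42.0 were run on the recovered reads: edgeR called 4490, 2959, 9570, 9861 and 563 genes in the 5 comparisons, in the order O2 under shSC, O2 under shCHD4, label at 20% O2, label at 1% O2 and interaction. The limma fit was tested on simulated data. In all, 24 alternatives were run, 2 of them chosen after seeing the data.

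Members and gene lists were chosen with earlier results of these data known. Members named are those with the 8 largest rises and falls past the threshold in each comparison, the member that moved least, paralogs, stalk and 5S RNA partners; the other members named belong to role lists or stand for a chromosome, or were chosen after their values were seen (RPL10A and RPL15 among them). Pseudogenes were counted with GENCODE 29 by gene symbol, which also gave transcript length and GC content. Gene order for the neighbours came from RefSeq by gene symbol, and start sites from RefSeq (GRCh38.p14). The 27 rows with names turned into dates and the 2 names that occur more than once in the table are no members. Some members and related genes are not reported here one by one, though they stay in the fits and counts.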

Additional observations from a re-analysis of the deposited data

How the results depend on the processing

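Limits come from 2 libraries per group. Whether equal replicate numbers pair libraries of different groups is not in the labels. Same-numbered deviations had correlations between groups of -0.12 to 0.12 over all genes and of -0.34 to 0.39 over the members. These correlations cannot decide whether the libraries are paired. With the replicate block, counts of members were those without it except 0 lower instead of 1 for O2 under shSC and 28 higher instead of 29 for the label at 1% O2. With the numbers exchanged only in the shCHD4-labelled libraries at 1% O2, 3 members were lower with O2 under shSC and 3 under shCHD4. Between labels 62 members then passed at 20% O2 and 62 at 1% O2, where 75.6% and 77.5% of all genes passed.

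For O2 under shSC the main counts of 2 higher and 1 lower became 1 higher and 0 lower without a filter on low values, without a variance trend or with each library centred on its median ribosomal protein gene, 0 lower with TMM factors, DESeq2 size factors, edgeR and DESeq2, 1 higher and 15 lower with quantile normalization (median -0.0675), 3 lower after a GC and length correction, 4 lower with the replicate block and that correction, and 4 higher and 0 lower centred on neighbours. Leaving out 1 library gave 0 to 7 higher and 0 to 5 lower. For O2 under shCHD4 the 3 lower became 1 without the filter or the trend, 8 with quantile normalization, 8 (and 1 higher) after the GC and length correction, 6 (and 1 higher) with the replicate block and that correction, 0 centred on the members' median, and 1 was higher centred on neighbours. Leaving out 1 library gave 0 to 1 higher, 0 to 4 lower and a median of -0.0958 to 0.0379.

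For the label at 20% O2 the 28 lower became 18 with quantile normalization and 14 centred on neighbours. Its median of 0.04 became 0.13 with quantile normalization, 0.10 after the GC and length correction, 0.10 with the replicate block and that correction and -0.027 centred on the members' median, and ran from -0.0321 to 0.114 without 1 library. At 1% O2 quantile normalization gave 44 higher, 18 lower and a median of 0.18, and 19 were higher without a variance trend and centred on the members' median. The summed level at 1% O2, 0.9619 of that under shSC, was 1.04 as a share of reads.

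Centred on neighbours, these differences between labels changed sign at 20% O2: RPL13 (-0.0597), RPL39 (0.125), RPL35 (0.0491), RPL8 (0.101), RPL3 (0.01004), RPLP2 (0.0363), RPL11 (-0.000199) and RPS4X (-0.139). At 1% O2 they were RPL13 (-0.19), RPL39 (0.10), RPL35 (0.10), RPL8 (0.13), RPL7 (-0.0259), RPL11 (-0.12), RPS19 (-0.031) and RPS4X (-0.21). Of these, RPS4X at both levels and RPL13, RPL8 and RPL11 at 1% O2 passed with the new sign. With quantile normalization O2 under shSC gave RPL7A -0.15, RPLP0 -0.20 and RPL5 -0.12, the label at 20% O2 gave RPS14 0.12, and the label at 1% O2 gave RPL7A 0.0471 and RPLP0 0.055. The cause was not tested. Of the other values of named members, 2993 stayed on their side of the threshold with no call reversed (values that passed in neither analysis could change sign), 87 lost the call and 42 gained one. The interaction had 0 members past the threshold in every alternative run.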
